A study of Mus musculus with 30 samples.

Results

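The genes followed here are 43 interferon-stimulated genes, a list of receptors, transcription factors, nucleic acid sensors, antiviral effectors and guanosine triphosphatases (GTPases) of the interferon response. A member was found by matching the RefSeq accession of each array probe to the gene symbol, and 40 of the 43 members had a probe among the 36717 genes and transcripts measured. The synthetase Oas1b and the GTPases Mx1 and Mx2 were matched to no probe and are not analysed here. Of the 40, Oas3 was well above background on none of the 30 arrays, so its values are bounds only. The other 39 were measured, 36 of them on all 30 arrays. Irf7 was well above background on 13 of the 15 hippocampal arrays, Rsad2 and Ifi44 on 14 each, and all 3 on the 15 brain arrays.

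The study asked what the loss of B cells does to the brain of a mouse model of Alzheimer's disease. Total RNA from the hippocampus and from the brain without it was labelled with 1 dye and hybridised to Agilent arrays, 30 arrays from 15 mice of 15 to 20 months. Each mouse gave 1 array per tissue and carried the same number in both. The animals had been perfused with saline before dissection. 3×TgAD mice (females 1 and 2, males 3 to 5) carry human APP with the Swedish mutation and a mutant human tau transgene, among other changes. Both transgenes are driven by the neuronal Thy1 promoter. JHT mice (females 13 and 14) lack the immunoglobulin heavy chain joining locus, and their B cells stop at the pro-B stage. 3×TgAD-BKO mice (females 6 and 7, males 0, 8 and 9; JHT_3xTgAD in the labels) are the cross and carry the modifications of both lines, while the WT group was 3 females (10 to 12). No JHT or WT male was included. The labels give the strain of every animal as C57BL/6j. The methods call the 3×TgAD mice congenic, with line names for 3×TgAD and JHT that also list another strain. They state that C57BL/6j females were bought from a vendor. Genotype, origin and any difference in background therefore cannot be told apart between WT and the other groups.

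Type I interferons bind the receptor formed by Ifnar1 and Ifnar2, and the receptor's kinases phosphorylate Stat2. It joins Irf9 in a complex that binds the interferon-stimulated response element (ISRE) and starts transcription of antiviral genes. Interferon gamma uses another receptor, acts through the gamma-activated site (GAS) and induces Irf1 and the GTPases of the Gbp and immunity-related families. In the brain, microglia, endothelium and infiltrating leukocytes are known for strong responses of this kind, and interferon-stimulated genes have been described in microglia near amyloid plaques.

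Sequences upstream of 5 members are shown first, because they hold the elements through which interferons act. Isg15, Gbp2, Gbp3 and Irf1 were called in a brain comparison below, and Oas1a, which was not, holds both elements. In the RefSeq promoter windows (GRCm38.p6), the 250 bases before the start site were searched on both strands for the ISRE core, GAAANNGAAA or TTTCNNTTTC, and for the GAS core, TTCNNNGAA, which reads the same on both strands. The 5 stretches below run 5′ to 3′ along the strand of the gene, with the matched letters in capitals and overlapping matches merged into 1 run.

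Isg15, chr4:156200855-156200916, minus strand, ISRE matches: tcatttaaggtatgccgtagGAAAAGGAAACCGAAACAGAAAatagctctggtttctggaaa
Gbp3, chr3:142559979-142560034, plus strand, ISRE matches: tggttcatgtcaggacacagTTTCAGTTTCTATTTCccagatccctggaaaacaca
Gbp2, chr3:142620584-142620633, plus strand, 1 ISRE match: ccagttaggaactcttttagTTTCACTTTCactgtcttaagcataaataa
Irf1, chr11:53769904-53769952, plus strand, 1 GAS match: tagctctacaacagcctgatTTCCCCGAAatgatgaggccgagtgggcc
Oas1a, chr5:120907526-120907643, minus strand, 1 GAS match followed by ISRE matches: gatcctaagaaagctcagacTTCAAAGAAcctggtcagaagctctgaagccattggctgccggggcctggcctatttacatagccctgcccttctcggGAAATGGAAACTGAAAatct

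The ISRE core was present in 16 of the 32 members with a window, or 50%, against 3.46% of 27025 genes. The GAS core was present in 9 of the 32, or 28.1%, against 8.13% of all genes. Oas1a, Bst2, Gbp7 and Igtp held both cores, and in Bst2 matches of the 2 motifs overlapped. Gbp2, Gbp3, Gbp7, Igtp and Irgm1 held the ISRE core, as did Ifit1, Ifit3, Isg15, Stat2, Oas3, Rsad2, Ifitm2, Trim30a and Lgals9. Irf1, Ifit2, Isg20, Eif2ak2 and Ifnar2 held the GAS core alone, and the remaining members with a window held neither. A match is a run of letters and not a site shown to be bound, and other members may hold these cores outside the window.

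Values throughout are log2 signals after quantile normalization over the 30 arrays, and a change is a difference of log2 values with its limma standard error (SE). Adjusted p-values were taken over all genes tested, and a gene was called at an adjusted p under 0.05. All animals of a sex and genotype are separate mice. In bulk tissue, fewer cells of a type and less RNA per cell cannot be told apart. Array signals depend on the probe, so that levels were compared between samples and never between genes.

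The tissue, sex and transgene labels matched the arrays. The sex-linked genes Xist and Ddx3y fitted the labelled sex on all 30 arrays. The list of hippocampal neuron markers averaged 11.11 to 11.62 in hippocampus and 9.56 to 9.88 in brain. Within the list Neurod1 and Wfs1 went the other way, at 8.86 and 13.53 in hippocampus against 10.91 and 13.69 in brain. Thy1, whose promoter drives the transgenes, read higher in every 3×TgAD and 3×TgAD-BKO array than in any JHT or WT array of the same tissue. Of the B cell markers, Ms4a1, Pax5, Cd79a and Blk were well above background on at most 2 of the 15 arrays of either tissue and Cd22 and Cd79b on at least 14, and none of the list was called in a genotype comparison. The arrays lay on 4 slides scanned on 1 day, and no slide held both 3×TgAD and WT samples, so for that comparison slide and genotype cannot be told apart, except through the 3×TgAD-BKO males that bridge the slides. The choroid plexus marker list ranged from 7.44 to 14.06 across hippocampal arrays. Hippocampal 3×TgAD-BKO mouse 0 had 432 spots flagged by the scanner software, against 102 to 160 on the others, and the highest mean of the members of any array of its tissue.

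Taken over the 36 members measured on all arrays, the mean level in brain was lowest in 3×TgAD. It lay between 8.81 and 8.97 in the 5 brains of 3×TgAD (mean 8.87 ± 0.0676, SD) and between 9.07 and 9.44 in the 5 of 3×TgAD-BKO (9.27 ± 0.147), with no overlap. The 3 WT brains lay between 9.26 and 9.60 (9.44 ± 0.174) and the 2 JHT brains at 9.16 and 9.21. In hippocampus the 3×TgAD range was 8.18 to 8.48 (8.34 ± 0.126) and the 3×TgAD-BKO range 8.63 to 9.58 (8.90 ± 0.402), again without overlap, where mouse 0 stood at 9.58 and the next animal at 8.97. The WT hippocampi spanned 8.41 to 8.96 and the JHT hippocampi 8.70 to 9.00.

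**Figure D1:**
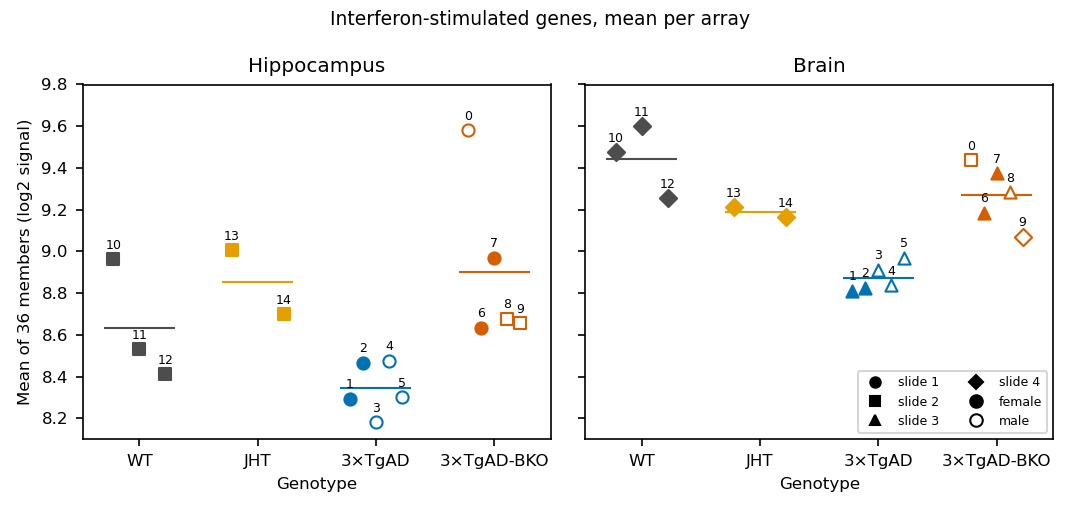
Mean log2 signal of the 36 members measured on all arrays, 1 point per array, by genotype and tissue, with filled points for females, open points for males, marker shape for the slide, the mouse number beside each point and a line at the group mean. The 3×TgAD points lie below the 3×TgAD-BKO points in both tissues, at 8.81 to 8.97 against 9.07 to 9.44 in brain.

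**Figure D2:**
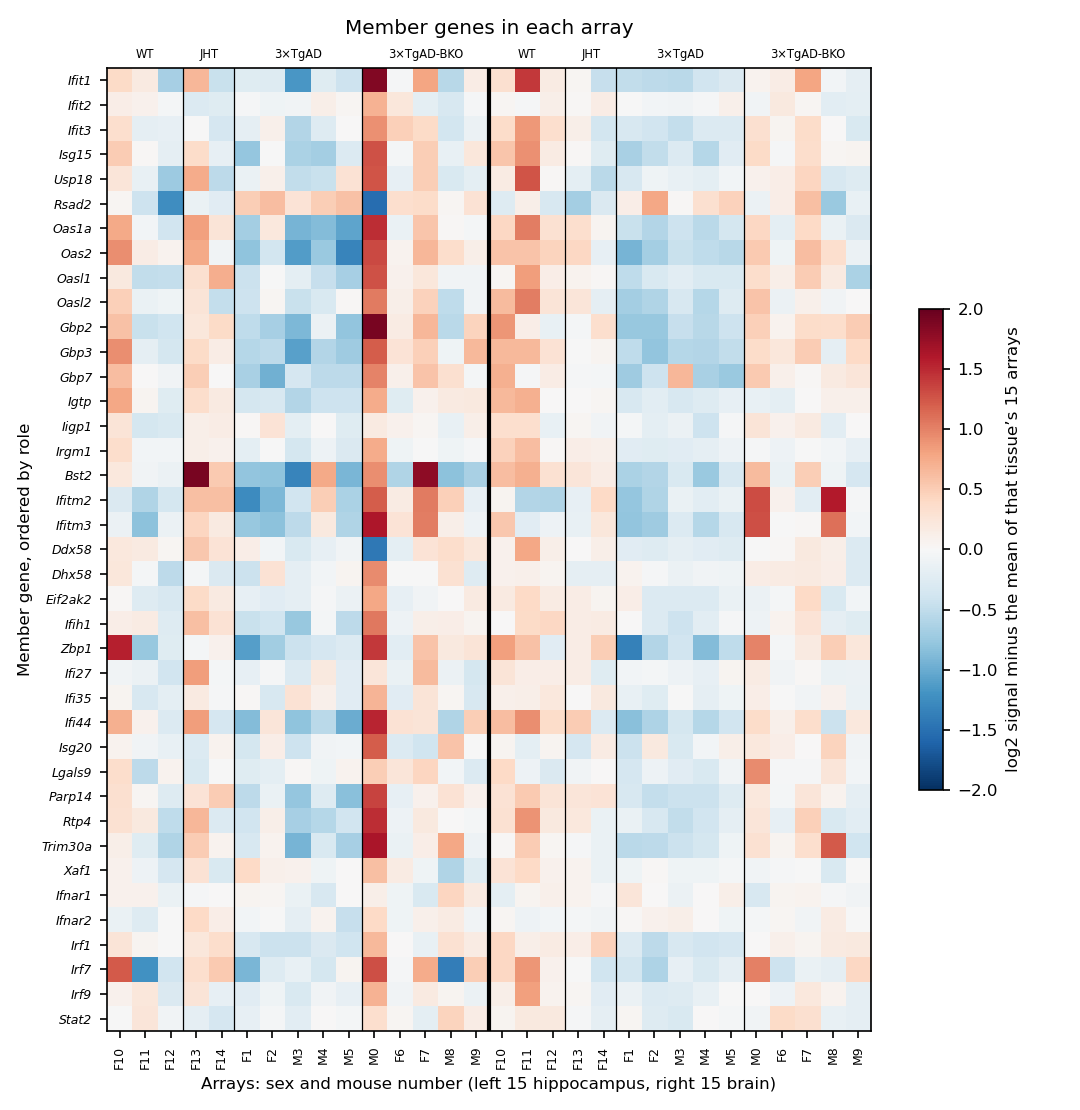
Log2 signal of 39 members minus the mean of the tissue, with members as rows and the 30 arrays as columns grouped by tissue and genotype, colours stopping at 2 in either direction. The brain columns of 3×TgAD are low across most members, and hippocampal 3×TgAD-BKO mouse 0 is high across most members, with Rsad2 and Ddx58 among the exceptions.

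The loss of B cells in 3×TgAD mice was compared first in brain. Over both sexes, 6 of the 40 members rose in 3×TgAD-BKO against 3×TgAD and none fell, while 1.53% of all genes rose and 1.11% fell. The 6 were the GTPases Gbp2 and Gbp3, the transcription factor Irf1, the RNA-activated synthetase Oas2, the nucleic acid sensor Zbp1 and the mono-ADP-ribosyltransferase Parp14. The median change of the members was 0.35, and 35 of the 40 were higher. At an unadjusted p under 0.05, 19 members were higher and 0 lower, where 7.23% of all genes were higher and 7.24% lower. The groups did not overlap, 5 mice against 5, for 12 members, all higher in 3×TgAD-BKO, against 2.43% of all genes higher and 2.05% lower. Those 12 were Gbp2, Gbp3, Irf1, Oas2, Zbp1, Parp14, Oas1a, Oasl2, Ifit1, Isg15, Ifitm3 and Lgals9.

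Among the interferon-gamma inducible GTPases, which act on membranes of intracellular pathogens, Gbp3 in brain read 8.60, 8.32, 8.54, 8.52 and 8.62 in 3×TgAD mice 1 to 5. It read 9.33, 9.62, 9.48, 8.93 and 9.51 in 3×TgAD-BKO mice 6, 7, 0, 8 and 9. Every 3×TgAD-BKO brain lay above every 3×TgAD brain, and Gbp3 rose by 0.88 (SE 0.13, adjusted p = 0.00549, limma), or 1.85-fold. Gbp2 read 8.02, 8.01, 8.31, 8.22 and 8.36 in 3×TgAD and 8.84, 9.14, 9.25, 9.12 and 9.28 in 3×TgAD-BKO. These values did not overlap either, and the rise was 0.95 (SE 0.17, adjusted p = 0.0160), or 1.93-fold. Of the 6 GTPases tested, 2 were called, and the others were Gbp7 at 0.59, Igtp and Iigp1 at 0.22 and Irgm1 at 0.14.

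Of the transcription factors, Irf1, which interferon gamma induces early and which drives the Gbp genes, read 10.07, 9.82, 10.02, 9.97 and 10.01 in the 3×TgAD brains and 10.45, 10.40, 10.35, 10.52 and 10.54 in the 3×TgAD-BKO brains. The rise was small, 0.47 (SE 0.09, adjusted p = 0.0196), or 1.39-fold, with no overlap. The gene had a second probe, well above background on 0 of the 15 brain arrays, and with this dim probe averaged in the change was 0.22 (adjusted p = 0.452). The other 3 factors were not called. Stat2 and Irf9, partners in the complex of the type I response, differed by 0.22 and 0.18, and Irf7, the amplifier of type I interferon production, by 0.43 (adjusted p = 0.426).

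Among the sensors and the OAS proteins, Zbp1, which binds Z-form nucleic acid and can start cell death, had the largest change of the 6. It read 4.87, 5.64, 5.85, 5.37 and 5.72 in 3×TgAD and 6.18, 6.41, 7.22, 6.71 and 6.45 in 3×TgAD-BKO. The rise was 1.10 (SE 0.24, adjusted p = 0.0403), or 2.14-fold, close to the threshold. With a second probe, well above background on 6 of the 15 brain arrays, averaged in, it was 0.89 (adjusted p = 0.185). The RNA sensors Ddx58, Ifih1, Dhx58 and Eif2ak2 differed by 0.26, 0.17, 0.12 and 0.16 and none was called. Oas2, which makes the short adenylates that activate RNase L, read 7.07, 7.31, 7.54, 7.49 and 7.43 in 3×TgAD and 7.90, 8.61, 8.52, 8.33 and 7.87 in 3×TgAD-BKO. It rose by 0.91 (SE 0.17, adjusted p = 0.0192), or 1.88-fold, without overlap. Oasl2, Oas1a and Oasl1 differed by 0.59, 0.52 and 0.48, and none of the 3 was called.

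Parp14, an ADP-ribosyltransferase of macrophages and lymphocytes, was the only one of the 9 other effectors to be called. It read 8.21, 8.06, 8.11, 8.11 and 8.27 in 3×TgAD and 8.50, 8.77, 8.75, 8.61 and 8.36 in 3×TgAD-BKO, a rise of 0.46 (SE 0.09, adjusted p = 0.0307), or 1.37-fold. The lowest 3×TgAD-BKO brain, mouse 9, was near the highest 3×TgAD brain, mouse 5. Ifi44 and Trim30a differed by 0.72 and 0.69 and were not called. Ifi27 and Xaf1 differed by 0.03 and -0.02.

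The ubiquitin-like modifier Isg15 did not pass the threshold, though its groups did not overlap. It read 9.97, 10.12, 10.34, 10.05 and 10.39 in 3×TgAD and 10.59, 10.96, 11, 10.66 and 10.67 in 3×TgAD-BKO, a difference of 0.62 (SE 0.15, adjusted p = 0.0640). A second Isg15 probe differed by 0.83. Usp18, the protease that removes Isg15 from its targets and dampens receptor signalling, differed by 0.22. The membrane proteins that block viral entry and release differed by 0.96 (Ifitm3, adjusted p = 0.0805), 0.87 (Ifitm2) and 0.66 (Bst2), the highest median of any role at 0.87. All 3 were at an unadjusted p under 0.05. Ifitm3 split the 3×TgAD-BKO brains, with mice 0 and 8 at 12.38 and 12.20 and the other 3 between 11.04 and 11.12, all above the 3×TgAD range of 10.30 to 10.82.

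The receptor chains, at the start of the response, Ifnar1 and Ifnar2 differed by -0.10 and -0.02 in brain. Their levels stayed between 10.91 and 11.48 for Ifnar1 and between 10.82 and 11.08 for Ifnar2 on the 15 brain arrays. The tetratricopeptide proteins that bind viral RNA were uneven, with Ifit1 at 0.66, Ifit3 at 0.46 and Ifit2 at -0.01. Rsad2 (viperin), which makes a chain-terminating nucleotide, ran the other way. It read 7.71, 8.36, 7.60, 7.91 and 8.04 in 3×TgAD and 7.71, 8.18, 7.46, 6.83 and 7.44 in 3×TgAD-BKO, a difference of -0.35 (adjusted p = 0.450) with overlapping groups.

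**Figure D3:**
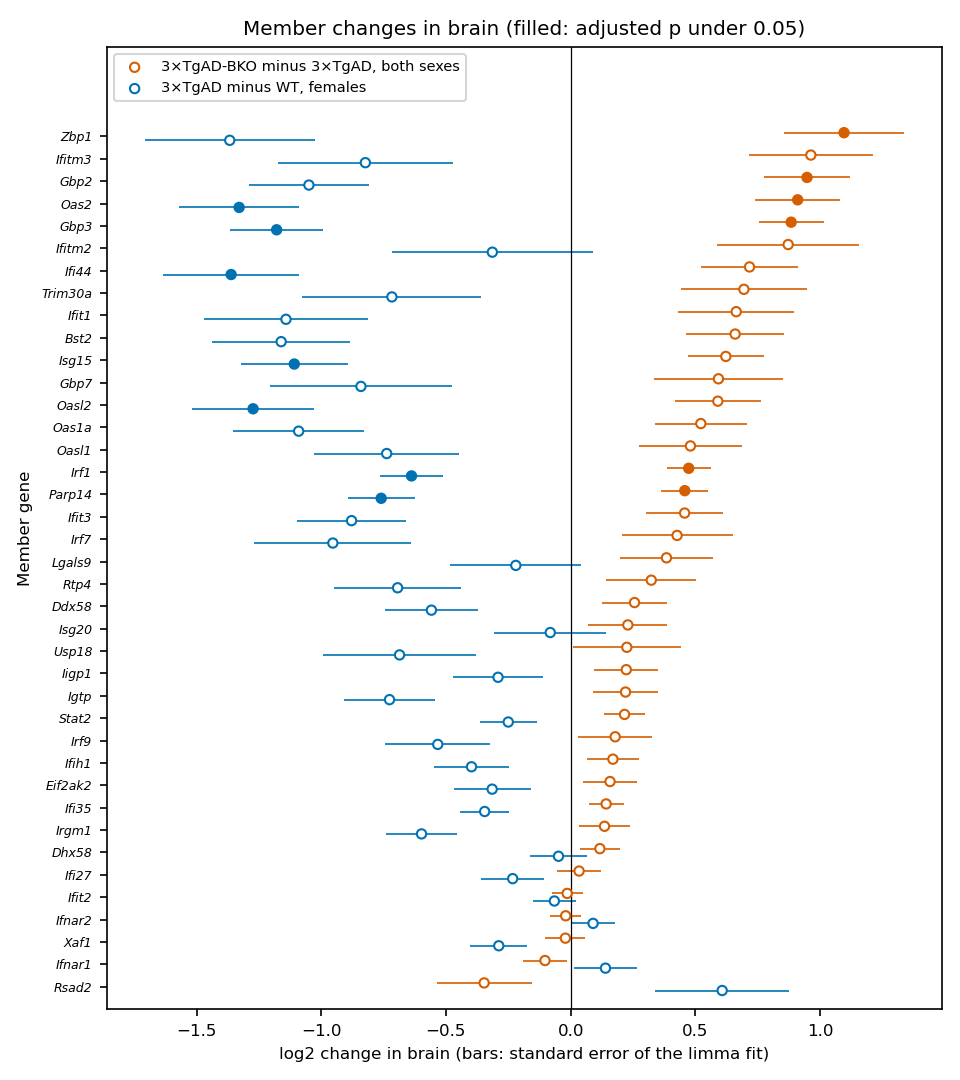
Log2 change in brain of 39 members with limma standard errors, for 3×TgAD-BKO minus 3×TgAD over both sexes and for 3×TgAD minus WT in females, filled where the adjusted p was under 0.05. Most members lie above 0 in the former and below 0 in the latter, with Rsad2 reversed in both, and both comparisons use the 3×TgAD females.

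Several cell type marker lists moved with this comparison, and their part in the result was not tested. In the 3×TgAD-BKO brains, 9 of 10 endothelial markers were higher (median 0.42), with the tight junction gene Cldn5 up by 1.05 (adjusted p = 0.0125), and the list mean was 10.92 to 11.44 against 10.55 to 10.78 in 3×TgAD. Of 8 microglial markers 7 were higher (median 0.21), with Trem2 up by 0.52 (adjusted p = 0.00333), and the list mean was 12.20 to 12.53 against 12.02 to 12.15. All 10 neutrophil markers were higher (median 1.53), at 10.01 to 13.23 against 9.06 to 10.95. Of 8 markers of T and NK cells 7 were higher, with the granzyme gene Gzma up by 1.56 (adjusted p = 0.0428). All 6 meningeal fibroblast markers were higher (median 0.27), and 4 of 8 choroid plexus markers were.

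The brain comparison was repeated on the 1 slide that held both genotypes, 3 brains of 3×TgAD-BKO against all 5 of 3×TgAD. There 18 of 40 members were higher in every 3×TgAD-BKO brain and 0 were lower, against 8.15% and 6.85% of all genes, with a median difference of 0.30. Gbp2, Gbp3, Irf1, Oas2, Parp14 and Zbp1 were among the 18, differing by 0.85, 0.78, 0.48, 0.91, 0.48 and 0.95. With the slide as a block, the male part rested on mouse 8 alone. Gbp2, Gbp3, Irf1, Oas2, Parp14 and Zbp1 then rose by 0.90, 0.69, 0.50, 0.96, 0.48 and 1.06, and Gbp2 and Zbp1 were not called. The count fell to 3 without 3×TgAD mouse 1, 2 or 4 (2.34%, 2.11% and 1.66% of all genes called), to 4 without 3×TgAD-BKO mouse 0, 6 or 7 (2.38%, 2.78% and 3.12%), and rose to 9 without 3×TgAD-BKO mouse 9 (3.59%). Gbp3 was called in each of the 19 alternatives, with adjusted p-values from 0.000916 to 0.0471. Of the 10 animals compared, Zbp1 kept its call without 3×TgAD mouse 2 or 3×TgAD-BKO mouse 9, and lost it without any 1 of the others.

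In brain the sexes were also taken apart. In females, 2 mice against 2, Gbp3 alone was called, up by 1.02 (adjusted p = 0.0437), where 1.12% of all genes were called. Oas2 and Zbp1 differed by 1.07 (adjusted p = 0.0947) and 1.04 (adjusted p = 0.265). In females 14 members were higher and 0 lower at an unadjusted p under 0.05, against 7.17% and 5.72% of all genes, and the 14 became 7 without 3×TgAD mouse 1 or 2 and 5 without 3×TgAD-BKO mouse 7. In males, 3 against 3, limma called 0 members, against 0.961% of all genes, with 12 higher and 1 lower at an unadjusted p under 0.05 (5.32% and 6.22% of all genes), and the 12 became 19 without 3×TgAD-BKO mouse 9. The largest male differences were Ifitm3 at 1.16, Zbp1 at 1.15 and Ifitm2 at 1.12. With the slide as a block, where males rested on mouse 8 alone, they were at 1.49, 1.07 and 1.75. The median change was 0.42 in females and 0.31 in males, and the difference between the sexes was called for 0 members (0.101% of all genes), with 2 members larger in females and 0 larger in males at an unadjusted p under 0.05 (5% and 3.74% of all genes). Female minus male, the changes differed most for Ifit1 (0.63), Rsad2 (0.52) and Usp18 (0.51). The female call rested on few animals, and Gbp3 was not called without 3×TgAD mouse 1 or 2 or 3×TgAD-BKO mouse 7.

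Next, 3×TgAD females were compared with WT females in brain, 2 mice against 3. Here 7 of the 40 members fell in 3×TgAD and none rose, while 0.621% of all genes fell and 0.531% rose. They were Gbp3, Parp14, Oas2, Oasl2, Isg15, Irf1 and Ifi44. The median difference was -0.66 and 36 members were lower. At an unadjusted p under 0.05, 26 members were lower and 1, Rsad2, was higher, where 5.2% of all genes were lower and 5.76% higher, and the 26 became 17 without 3×TgAD mouse 2. In 31 members both 3×TgAD brains lay below all 3 WT brains, against 19.4% of all genes, and in 2, Rsad2 and the dim Oas3, above them, against 17.3%. This comparison used the same 3×TgAD females as the B cell comparison, so the values of the 2 are not independent.

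The WT brains read 9.76, 9.75 and 9.39 for Gbp3, against the 8.60 and 8.32 of the 3×TgAD females, and Gbp3 fell by 1.18 (SE 0.18, adjusted p = 0.0133), or 2.26-fold. Isg15 read 11.16, 11.53 and 10.78 in WT against 9.97 and 10.12, a change of -1.11 (SE 0.21, adjusted p = 0.0390). A second Isg15 probe differed by -1.17. Both 3×TgAD females were below every WT female for either gene.

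The OAS members had the lowest median of any role, at -1.09 over 5 members. Oas2 read 8.56, 8.56 and 8.44 in WT against 7.07 and 7.31, and changed by -1.33 (SE 0.24, adjusted p = 0.0282), or 2.51-fold lower. Oasl2 read 9.62, 10.02 and 9.25 in WT against 8.32 and 8.40, and changed by -1.27 (SE 0.24, adjusted p = 0.0382). Both members were separated by more than the spread of either group. Oas1a and Oasl1 were at -1.09 and -0.74, without a call.

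Irf1, Parp14 and Ifi44 made up the remaining calls. Irf1 read 10.77, 10.47 and 10.51 in WT against 10.07 and 9.82, a change of -0.64 (SE 0.13, adjusted p = 0.0422), which was -0.28 (adjusted p = 0.653) with its dim second probe averaged in. Parp14 read 8.82, 9.07 and 8.80 against 8.21 and 8.06, a change of -0.76 (SE 0.13, adjusted p = 0.0253). Ifi44, an interferon-induced protein of the cytoplasm, read 7.47, 7.79 and 7.22 against 6.02 and 6.24, a change of -1.36 (SE 0.27, adjusted p = 0.0458). None of the 3 overlapped between the groups.

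Members without a call included large differences. Zbp1 was at -1.37 (adjusted p = 0.105), Bst2 at -1.16, Ifit1 at -1.14, Gbp2 at -1.05 (adjusted p = 0.0781) and Irf7 at -0.95. Rsad2 read 7.32, 7.70 and 7.26 in WT against 7.71 and 8.36 in 3×TgAD, a difference of 0.61 (adjusted p = 0.446). The receptors Ifnar1 and Ifnar2 were at 0.14 and 0.09, and Ifit2 at -0.07, Dhx58 at -0.05 and Isg20 at -0.08.

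Marker lists moved here as well, and their part was not tested. In 3×TgAD against WT brain, 9 of 10 endothelial markers were lower (median -0.51) and 8 of 8 choroid plexus markers were lower (median -0.30), 9 of 10 neutrophil markers were higher (median 2.0) and 4 of 8 microglial markers were higher. The endothelial list mean was 10.87 to 11.34 in WT. Since the slides of the 2 groups never coincided, a fit with the slide as a block rested on 3×TgAD-BKO mouse 8 against mouse 9. It called Parp14, Dhx58, Ifitm3 and Trim30a, all lower in 3×TgAD, where 3.08% of all genes were called. Of the 7 members above only Parp14 was thus called in it. Gbp3 was at -0.59, Oas2 at -1.79, Oasl2 at -1.19, Isg15 at -1.10, Irf1 at -0.62 and Ifi44 at -0.72. For Dhx58, Ifitm3 and Trim30a, mouse 9 read 6.96, 11.04 and 6.49 against 7.38, 12.20 and 8.11 in mouse 8. In the fit with no slide block, the count called was 2 without WT mouse 10 (0.97% of all genes), 1 without WT mouse 11 (0.882%) and 8 without WT mouse 12 (0.814%). Leaving out 3×TgAD mouse 1 or 2 left 1 animal in that group, and fewer members were then called.

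JHT females were compared with WT females to see the B cell deletion on its own, 2 mice against 3. In brain limma called 0 members, against 0.161% of all genes, with 9 lower and 0 higher at an unadjusted p under 0.05 (2.68% and 3.63% of all genes) and a median of -0.25. The 9 lower became 0 without JHT mouse 14 and 3 without WT mouse 11. Usp18 (-0.85), Ifit1 (-0.84) and Irf7 (-0.67) had the largest differences. WT mouse 11 weighed in these. Its Usp18 read 9.36 against 8.27 and 8.13 in the other WT brains and 7.90 and 7.57 in JHT, and its Ifit1 read 9.38 against 8.29 and 8.13 and, in JHT, 8.01 and 7.51. In 15 members both JHT brains lay below all WT brains and in 0 above, against 11% and 10.4% of all genes. The members that rose in 3×TgAD-BKO stood in JHT brain at 9.10 and 9.16 for Gbp3, 8.73 and 9.10 for Gbp2, 8.40 and 7.83 for Oas2 and 10.48 and 10.81 for Irf1, each above every 3×TgAD brain. All JHT brains lay on another slide than the 3×TgAD brains, so that slide and genotype cannot be told apart there. Neutrophil markers were higher in JHT brain, 10 of 10, with a median of 2.78, and their part was not tested.

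3×TgAD-BKO females were also set against WT females in brain, a comparison chosen after the values were seen, in which the groups lay on different slides and slide and genotype cannot be told apart. limma called 0 members, against 0.994% of all genes, with 5 lower and 0 higher at an unadjusted p under 0.05 (5.41% and 7.8% of all genes) and a median of -0.17. In 4 members the 3×TgAD-BKO females lay above all WT females and in 10 below, against 19.5% and 17.2% of all genes.

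In hippocampus, 3×TgAD-BKO against 3×TgAD over both sexes called 1 member, Irf1, where 1.02% of all genes were called. Irf1 read 10.23, 10.13, 10.13, 10.27 and 10.15 in 3×TgAD mice 1 to 5 and 10.57, 10.40, 11.21, 10.86 and 10.72 in 3×TgAD-BKO mice 6, 7, 0, 8 and 9. The groups did not overlap, and Irf1 rose by 0.53 (SE 0.10, adjusted p = 0.0405). A second Irf1 probe was well above background on 1 of the 15 hippocampal arrays and gave no measured difference, and with this dim probe averaged in the change was -0.12. Without mouse 0 the rise was 0.46 (adjusted p = 0.0260), and the number of members called lay between 0 and 3 when any 1 animal was left out.

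The median hippocampal difference was 0.49, with 37 members higher, and 15 were higher and 0 lower at an unadjusted p under 0.05, against 5.48% and 4.98% of all genes. The median was 0.29 without mouse 0, and the 15 became 9 without mouse 7. Oas2 read 6.10, 6.54, 5.79, 6.16 and 5.58 in 3×TgAD and 6.97, 7.56, 8.22, 7.26 and 7.02 in 3×TgAD-BKO, a difference of 1.30 (adjusted p = 0.0795). Gbp3 read 7.88, 7.93, 7.37, 7.86 and 7.73 against 8.73, 8.93, 9.66, 8.36 and 9.10, a difference of 1.15 (adjusted p = 0.118). Neither gene overlapped between the groups, and mouse 0 was the highest for both. Ifitm2 read 8.15, 8.50, 9.01, 9.90 and 8.77 against 9.56, 10.44, 10.61, 9.88 and 9.24, a difference of 1.18 (adjusted p = 0.123) with overlap. With the slide as a block, where the male part rested on mouse 0, all 3 were called, Oas2 at 1.66 (adjusted p = 0.00482), Gbp3 at 1.46 (adjusted p = 0.0124) and Ifitm2 at 1.53 (adjusted p = 0.00999), among 22 members higher and 2 lower, against 11.3% of all genes called. The groups did not overlap for 6 members, all higher in 3×TgAD-BKO, namely Irf1, Oas2, Gbp3, Gbp7, Igtp and Zbp1, against 1.46% of all genes higher and 0.837% lower. On the slide that held both genotypes, 3 animals against 5, 14 members did not overlap and all were higher, against 3.69% of all genes higher and 3.29% lower.

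**Figure D4:**
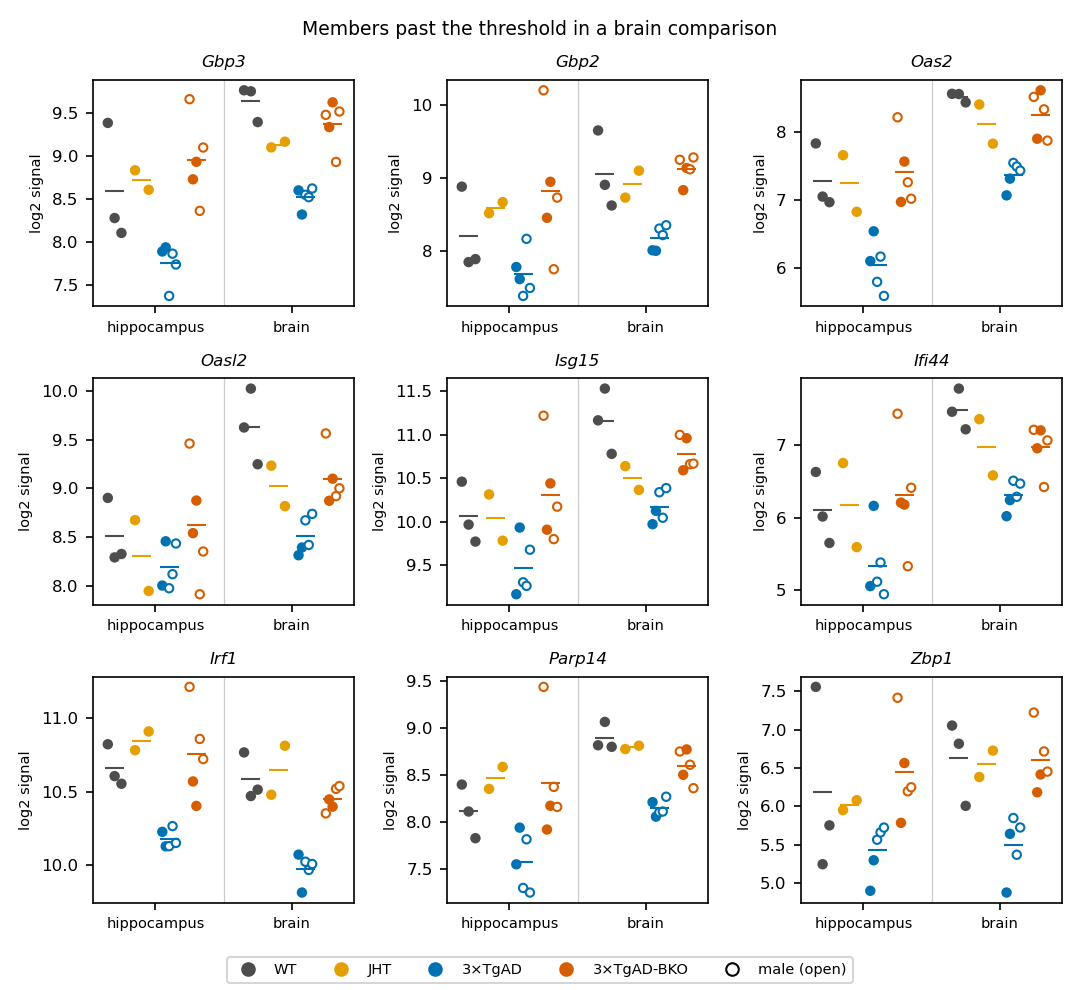
Log2 signal of the 9 members called in a brain comparison, 1 point per array, by genotype and tissue, with open points for males and a line at the group mean. In Gbp3, Oas2 and Irf1 all 3×TgAD points lie below all 3×TgAD-BKO points in both tissues, and the WT points of Isg15, Oasl2 and Ifi44 lie above the 3×TgAD points in brain.

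The hippocampal counts by sex rested on a few arrays. In males Irf1 was again the single call, up by 0.75 (adjusted p = 0.0324, against 0.847% of all genes called), with 19 members higher and 0 lower at an unadjusted p under 0.05 (10.7% and 7.43% of all genes) and a median of 0.46. Oas2 (1.65), Oas1a (1.44) and Trim30a (1.40) had the largest male differences. With the slide as a block, where males rested on mouse 0, they were at 2.37, 2.42 and 2.26, and without mouse 0 at 1.29, 0.94 and 0.97. Mouse 0 was above both other 3×TgAD-BKO males in each, at 8.22 against 7.26 and 7.02 for Oas2, 9.63 against 8.18 and 8.13 for Oas1a and 7.88 against 7.02 and 6.15 for Trim30a. Without it the male median was 0.35, and Irf1 was still called at 0.61 (adjusted p = 0.0416). The median was 0.74 without 3×TgAD-BKO mouse 8, and the 19 became 12 without mouse 0 or 3×TgAD mouse 3. The count was 0 without 3×TgAD mouse 3, 4 or 5 or 3×TgAD-BKO mouse 8, and 5 without 3×TgAD-BKO mouse 9, where 4.03% of all genes were called. In females limma called 0 members (0.37% of all genes), with 3 higher and 0 lower at an unadjusted p under 0.05 (7.79% and 8.6% of all genes) and a median of 0.30, which was 0.16 without 3×TgAD mouse 1 and 0.15 without 3×TgAD-BKO mouse 7. The largest female differences were in the membrane proteins, Ifitm2 at 1.67, Ifitm3 at 1.44 and Bst2 at 1.39. Bst2 in hippocampus read 8.91 and 11.29 in the 3×TgAD-BKO females against 8.71 and 8.70, so that 1 animal, mouse 7, carried the difference. No member's change differed between the sexes by the adjusted test in limma (0.0245% of all genes did). At an unadjusted p under 0.05, 2 members changed more in males and 0 in females, against 12% and 9.26% of all genes. Female minus male, the changes differed most for Trim30a (-1.28), Bst2 (1.09) and Isg20 (-1.0). Bst2 was at -0.029 with the slide as a block and -0.10 without 3×TgAD-BKO mouse 7. Isg20 was at -0.12 (adjusted p = 0.869) with its probes averaged. With the slide as a block, where the male part rested on mouse 0, Trim30a was at -2.14 and Isg20 at -1.63. Without mouse 0, Trim30a was at -0.85 (adjusted p = 0.297) and Isg20 at -0.69 (adjusted p = 0.211).

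Marker lists moved with these hippocampal comparisons, the choroid plexus list in opposite ways in the sexes, and their part was not tested. In females 8 of 8 choroid plexus markers were higher in 3×TgAD-BKO (median 1.54), and in males 0 of 8 were (median -2.48). Over both sexes all 10 endothelial markers were higher (median 0.41), with Cldn5 up by 1.16 (adjusted p = 0.00812), as were 8 of 8 microglial, 10 of 10 neutrophil (median 1.95) and 6 of 6 meningeal fibroblast markers (median 1.31). Ifitm2 and Ifitm3, which endothelium and leukocytes also express, had their highest hippocampal values in mouse 0, at 10.61 and 12.21.

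In hippocampus, 3×TgAD females against WT females gave limma 0 calls among members, against 0.746% of all genes, with 1 member higher and 3 lower at an unadjusted p under 0.05 (6.82% and 5.16% of all genes). The median was -0.18, with -0.030 without WT mouse 10, -0.097 without 3×TgAD mouse 1, -0.29 without 3×TgAD mouse 2 and -0.28 without WT mouse 12. Zbp1 was at -1.09, Rsad2 at 1.09 and Gbp7 at -0.99. With its probes averaged Zbp1 was at -0.45. With the slide as a block, the slide offset came from 3×TgAD-BKO mouse 0 against mice 8 and 9. The median was then -1.18, with Rsad2 at 2.78 and Gbp7 at -1.83. Rsad2 of mouse 0 was not well above background. Zbp1 read 7.56, 5.24 and 5.75 in WT against 4.90 and 5.29, with WT mouse 10 far above the others and the groups overlapping. Markers moved here too, with Cldn5 at -1.22 (adjusted p = 0.0463, limma). The choroid plexus list read 10.07 and 10.06 in the 3×TgAD females against 7.44 to 8.82 in WT, and the part of either was not tested. In JHT against WT hippocampus limma called 0 members, against 0.0926% of all genes, with 3 higher and 1 lower at an unadjusted p under 0.05 (4.31% and 3.52% of all genes). The median was 0.17, and it was -0.0057 without WT mouse 12, 0.022 without JHT mouse 13, 0.32 without JHT mouse 14 and 0.36 without WT mouse 10. Bst2 (1.20), Ifitm2 (1.02) and Oasl1 (0.77) had the largest differences there, where 8 of 8 choroid plexus markers were higher, with a median of 5.5. The part of those markers was not tested.

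The members were also compared between the tissues of the same mice. Hippocampi lay on slides 1 and 2 and brains on slides 3 and 4, except the brain of mouse 0, on slide 2. Tissue and slide therefore cannot be told apart except through that array. Cell type markers also differed, in both directions, among them Ttr at -2.57 and Tmem119 at 0.55, and their part was not tested. Over all genotypes, 30 of the 40 members differed, 27 lower and 3 higher in hippocampus than in brain, but 51.1% of all genes differed, 26% lower and 25.1% higher. The median member difference was -0.47. With the mouse as a block the count was 31, against 52% of all genes. Blocking on the slide, which rested on the brain array of mouse 0, gave a median of -1.34. Ifit1 (-1.34, SE 0.21, adjusted p = 2.03e-05), Oas2 (-1.06, SE 0.14, adjusted p = 1.99e-06), Dhx58 (-1.04, SE 0.10, adjusted p = 3.8e-08), Ifit3 (-1.02), Stat2 (-0.94) and Ifit2 (-0.90) were the lowest in hippocampus. With the slide as a block Ifit1 was at -2.65, Oas2 at -2.01 and Dhx58 at -1.71. Irf1, Iigp1 and Ifi27 were higher there by 0.20, 0.27 and 0.31, and these 3 turned with the scaling, since all 40 members were lower in hippocampus when arrays were quantile-normalized within each tissue, where the median of all genes was itself -0.77. Ifnar1 and Ifnar2 were close, at -0.17 and -0.14. The change with B cell loss in females did not differ between the tissues for any member by the adjusted test in limma (0.123% of all genes did), with 1 member smaller in hippocampus and 0 larger at an unadjusted p under 0.05 (5.21% and 4.7% of all genes), and the largest differences of the change were Ifitm2 at 1.05, Irf7 at 0.72 and Ifitm3 at 0.68.

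How the members varied from mouse to mouse was described after the mean of each sex and genotype was subtracted, so that the points are 15 arrays of a tissue. Over the 630 pairs of the 36 members measured everywhere, the median Pearson r was 0.632 in hippocampus and 0.245 in brain, against 0.011 and 0.008 for pairs drawn from all genes. All pairs share the same arrays, with their depth and tissue content. In hippocampus Isg15 and Oasl2 followed each other most closely (r = 0.966), then Usp18 and Rtp4 (0.947). In brain Ifit1 and Irf9 did (0.963), followed by Oas1a and Rtp4 (0.952), Isg15 and Oasl2 (0.950) and Ifitm2 and Ifitm3 (0.937). By role, the OAS members had medians of 0.819 in hippocampus and 0.667 in brain, the GTPases 0.758 and 0.434 and the membrane proteins 0.810 and 0.571. The IFIT members had 0.821 in hippocampus and -0.196 in brain, where Ifit1 and Ifit3 were at 0.842 and the pairs with Ifit2 at -0.196 and -0.467. The receptors ran apart from each other (-0.656 and -0.278), and in hippocampus Ddx58 had a mean r of -0.521 with the other members and Ifnar1 of -0.244. A second Ddx58 probe changed by 0.49 in hippocampus over both sexes, against -0.05 for the probe used.

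Mice high for a member in hippocampus tended to be high in brain. The median r over the 36 members between the tissues of the same 15 mice was 0.452, and 35 of 36 were above 0, against a median of 0.072 and 56.3% above 0 over 19498 genes. Oas2 (0.768) and Lgals9 (0.757) were highest, and Ddx58 (-0.02) was the exception. For the mean of the members, r was 0.603 and Spearman's rho 0.657, and without mice 0 and 10, the farthest from the median in hippocampus, r was 0.460. Mouse 0 carried part of the shared variation. Without it the median r between the tissues was 0.376 with 33 of 36 above 0, against 0.109 and 60.4% over all genes, the pair medians were 0.379 in hippocampus and 0.207 in brain, and r of the members' mean was 0.345.

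**Figure D5:**
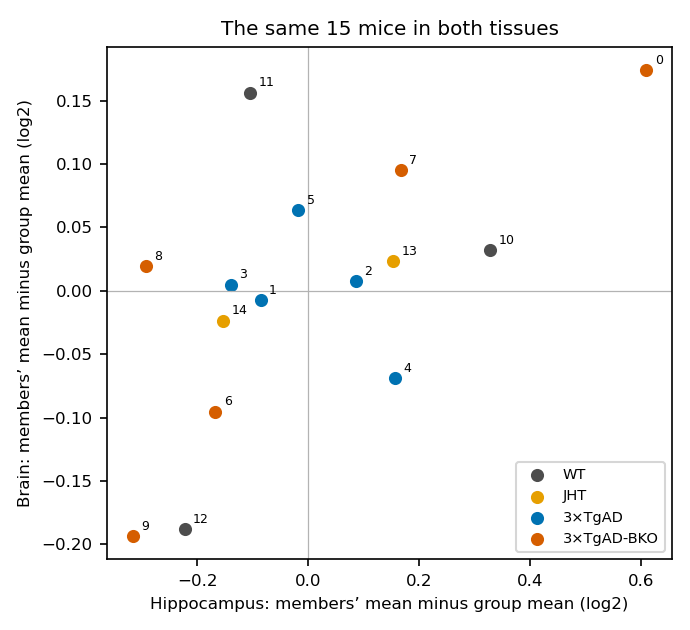
Mean of the 36 members in brain against hippocampus for 15 mice, each minus the mean of its sex and genotype (log2), with the mouse number beside each point. Mouse 0 lies farthest to the right, and r was 0.603 with it and 0.345 without it.

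The other genes of the interferon pathway were 65 genes listed apart from the members, all with a probe. Between 3×TgAD-BKO and 3×TgAD brains, 4 of the 65 rose and none fell, against 1.53% and 1.11% of all genes. They were the chemokine Cxcl10 (1.18, adjusted p = 0.0289), the DNA-binding Ifi203 (0.63, adjusted p = 0.0283), Phf11d (0.58, adjusted p = 0.0261) and Parp9 (0.32, adjusted p = 0.0399). At an unadjusted p under 0.05, 22 were higher and 2 lower, against 7.23% and 7.24% of all genes, and the median was 0.15. In 3×TgAD against WT brain, Ifi203 (-0.93, adjusted p = 0.0399) and the GTPase Irgm2 (-0.98, adjusted p = 0.0455) fell and none rose, against 0.621% and 0.531% of all genes, with 20 lower and 1 higher at an unadjusted p under 0.05 (5.2% and 5.76%) and a median of -0.28. In hippocampus over both sexes limma called 0 of them, against 1.02% of all genes, with 15 higher and 1 lower at an unadjusted p under 0.05 (5.48% and 4.98%). Of the interferon genes, Ifnb1 and Ifng were listed, and Ifnb1 was well above background on 0 hippocampal arrays and 1 brain array and Ifng on 1 and 0, whereas both chains of the interferon gamma receptor, Ifngr1 and Ifngr2, were measured on all 15 arrays of each tissue.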

How the data were processed

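Agilent Feature Extraction (version 12.0.3.1) files of 30 arrays were used. Per the file headers, the deposited intensity of a spot is the processed signal, background-subtracted by the scanner software, and none of the 62976 spots per array was saturated. The authors also deposited a table whose columns matched Z scores of the log signal within each array, and these score values served as an alternative only. The authors' methods name log2 values, quantile normalization and the probe with the highest average per gene, which were followed here. After 3671 control spots and flagged spots were left out, spots of 1 probe were averaged on the log2 scale over 55681 probes, and 28331 probes matched a RefSeq symbol. The array's annotation build was mm9, and promoters (GRCm38.p6) were joined by symbol only.

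Each tissue was fitted in limma (version 3.58.1, R 4.3.3) with 15 arrays and 6 groups of genotype and sex, and both tissues were fitted together for the tissue comparison, with Benjamini-Hochberg adjustment over 36717 genes. The change over both sexes is the mean of the female and male changes. The fit was also run on simulated data, and the outcome is not given here. The number of arrays limits precision. Exact permutation of single values cannot go below p = 0.333 for 2 against 2, 0.1 for 3 against 3 or 2 against 3 and 0.00794 for 5 against 5, so single-gene tests rest on limma's pooled spread. Same-numbered arrays come from 1 mouse (from the titles), and their deviations correlated with a median r of 0.105 (-0.178 to 0.240) over 19498 genes, against -0.0449 for other mice of the group.

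The members and lists were chosen with earlier results of these data known. Named are members by role, and for each genotype or sex comparison the members past the threshold and the 3 with the largest change among those well above background on all arrays of a group. Also named are part of the other pathway and marker genes past the threshold, and Xist, Ddx3y and Thy1 as label checks. Alternatives were background correction with normexp (offset 50), a filter on dim probes, scaling to the 75th percentile or within tissue, the mean of probes, the slide or the mouse as a block, other sets of arrays, the methods' t-test with no call resting on it, the deposited scores, and leaving out each mouse. Counts within a slide, 3×TgAD-BKO against WT and co-variation without mouse 0 were added after seeing the data. Some items are not reported here.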

Additional observations from a re-analysis of the deposited data

Results flagged for a closer look

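In 11 of 156 groups of 5 arrays, 1 animal stood apart from the others of its genotype and tissue by the gap to its neighbour over the group's range (Dixon's ratio above 0.71), where chance flags about 1 in 20 groups. Of the 11, 5 were hippocampal 3×TgAD-BKO mouse 0, with ratios of 0.906 for Irgm1, 0.833 for Rsad2, 0.805 for Rtp4, 0.799 for Ifih1 and 0.787 for Oasl1. In Rsad2 it was the lowest at 5.27, not well above background, and in the other 4 it was the highest. In hippocampal 3×TgAD, mouse 4 stood apart for Bst2 (0.746) and Ifitm3 (0.71), where it was the highest, and mouse 3 for Ifit1 (0.817), the lowest at 5.43. In brain, mouse 3 stood apart for Gbp7 in 3×TgAD (0.771), the highest at 7.18, and in 3×TgAD-BKO mouse 9 did for Dhx58 (0.892), the lowest at 6.96, and mouse 8 for Xaf1 (0.778), the lowest at 9.17.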

How the results depend on the processing

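The counts of members called in the report are given in parentheses below, each with the alternatives that moved it most. Smaller moves are left out. The cause was not tested, and percentages are the share of all genes called by the same setting. With the slide as a block, male results and 3×TgAD against WT rested on mouse 0 in hippocampus. In brain they rested on mouse 8 and on mice 8 and 9, respectively, and the tissue comparison rested on the brain of mouse 0. In hippocampus, 3×TgAD-BKO against 3×TgAD males (1 called) gave 26 with the slide as a block (15.4%), where the comparison rested on mouse 0, 9 with all 30 arrays in 1 fit (5.16%), 2 with the filter on dim probes, 0 with normexp, the mean of probes, only the groups compared or the methods' t-test after Benjamini-Hochberg, 8 by that t-test unadjusted (10.8%), and 0 to 5 leaving out 1 mouse. Over both sexes (1 called) the counts were 24 (slide block, 11.3%), 8 (all 30 arrays, 2.99%), 2 (dim filter), 0 (75th percentile, normexp, mean of probes, only the groups compared, deposited scores) and 0 to 3 leaving out 1 mouse. For comparisons with 0 called in hippocampus, the slide block gave 11 in 3×TgAD against WT (8.88%) and 10 in the difference between the sexes (13.4%), all 30 arrays gave 1 in the latter (8.24%), and the unadjusted t-test gave 2 in 3×TgAD-BKO females (13.3%), 4 in 3×TgAD against WT (13.5%) and 2 in JHT against WT (9.28%). In brain, females (1 called) gave 0 with the 75th percentile, only the groups compared, all 30 arrays, deposited scores and the adjusted t-test, 6 by the unadjusted t-test (17.7%), and 0 to 1 leaving out 1 mouse. Males (0 called) gave 3 with the slide block (2.89%), 1 with normexp, the dim filter or only the groups compared, 9 by the unadjusted t-test (8.32%), and 0 to 2 leaving out 1 mouse. Both sexes (6 called) gave 3 with only the groups compared, 2 with all 30 arrays (2.13%) and 3 to 9 leaving out 1 mouse. 3×TgAD against WT (7 called) gave 4 with the slide block (3.08%), 1 with only the groups compared or all 30 arrays, 0 and 13 by the t-test with and without adjustment (13% without), and 0 to 8 leaving out 1 mouse. JHT against WT in brain (0 called) gave 1 by the unadjusted t-test (5.76%). The tissue count of 30 was 23 with the slide block (18%) and 40 with normalization within tissue (81.5%), and lay between 27 and 32 in the other alternatives run.

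Among the members past the threshold or with the largest changes in the genotype and sex comparisons, sign changes were those of Irf1 in hippocampus with the mean of probes, where a probe well above background on 1 of 15 arrays was averaged in (-0.19 in males, -0.12 over both sexes), and the sex difference of Bst2 in hippocampus with the slide block (-0.029), which ran from -0.10 without 3×TgAD-BKO mouse 7 to 2.27 without mouse 6. In the tissue comparison, Irf1, Iigp1 and Ifi27 turned with normalization within tissue. Among medians, JHT against WT in hippocampus (0.17) was -0.0057 without WT mouse 12, the hippocampal sex difference (-0.30) was 0.023 without 3×TgAD-BKO mouse 0, that in brain (0.084) was -0.0071 without mouse 7, and the tissue difference of the female change (-0.11) was 0.040 without 3×TgAD mouse 2. The median tissue difference of the members moved to -1.49 with normalization within tissue and -1.34 with the slide block. The slide block also moved the hippocampal medians of 3×TgAD-BKO against 3×TgAD to 1.33 in males, 0.83 over both sexes and -0.76 in the sex difference, and that of 3×TgAD against WT to -1.18. With the mouse as a replicate block, run for the tissue results only, 31 members differed between tissues (52% of all genes). In the tissue difference of the female change 0 did (0.15%). Signals near background limit Oas3, and Irf7, Rsad2 and Ifi44 in hippocampus.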
